A study of Mus musculus with 6 samples.

Results

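The 10 genes described here are ones that cells switch on when oxygen runs low, and they were followed in 6 RNA-seq libraries from mice with WNT medulloblastoma, a hindbrain tumour driven by active WNT signalling. They are Egln3, Egln1, Pfkfb3, Vegfa, Car9, Ndrg1, Ankrd37, Bnip3, Ddit4 and Adm. Their rows were found by symbol, and all 10 were present among the 34591 gene rows. They were chosen by name as known targets of the hypoxia-inducible factors (HIF), with the control and shIft88 values of these same libraries already in view. Egln3 and Pfkfb3 in particular had been picked out for their small p between the groups. The contrast between the groups is therefore described below, and nothing is supported with it.

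There were 3 control libraries, and 3 more whose labels read sh2-Ift88, a short hairpin RNA that targets Ift88; they are called shIft88 below. The design text places both groups in the WNT medulloblastoma mouse model. Ift88 is a subunit of the transport complex that builds primary cilia, and the series title asks how cilia bear on translation and the cell cycle. Both groups are labelled as mouse brain. The alleles that drive the tumour, the vector of the hairpin, any hairpin in the controls and the age of the animals are not stated in the labels. Nor do they tie a library to an animal, so p-values measure the spread between these libraries only, and that spread may in part be technical.

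HIF is a pair of proteins: an oxygen-labile alpha subunit, Hif1a or Epas1, and a stable partner, Arnt. With oxygen present, the EGLN enzymes hydroxylate the alpha subunit, and the Vhl ubiquitin ligase then marks it for destruction. When oxygen falls, HIF accumulates in the nucleus and raises genes of glucose use, blood vessel growth, pH control and mitochondrial turnover. Among these are Egln3 and Egln1 themselves, which close a feedback loop.

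The libraries were deep, but they were not alike. Gene counts summed to between 26802618 and 33772559 per library. In shIft88 3 the 10 most abundant gene rows took 50.9% of all gene counts, against 13.9% to 19.8% in the other libraries, and its scaling factor was 0.598 where the others lay between 1.05 and 1.24. In control 2, shIft88 2 and shIft88 3 between 387 and 564 olfactory receptor genes had at least 1 read, against 24 to 38 in control 1, control 3 and shIft88 1. The WNT target Axin2 was at 320 CPM (counts per 1000000 counts) or more in every library and Lef1 at 69.0 CPM or more. Ift88 itself was at 13.8, 19.7 and 13.7 CPM in the controls, against 14.7, 16.0 and 14.4 CPM in the libraries labelled shIft88. The groups overlapped, so a lower Ift88 transcript was not seen, and each direction below is that of the labels.

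HIF binds a short DNA core, ACGTG in one form and GCGTG in the other, and the stretches before the start sites are shown for 4 genes. Egln3 and Pfkfb3 are the genes whose groups did not overlap, and Ankrd37 and Bnip3 hold the most cores. The sequences are the 250 bases before the start of each gene in RefSeq (GRCm38.p6, a later build than that of the counts), 5′ to 3′ on the strand of the gene. Capitals mark each core on either strand, reading CACGT and, for the other form, CACGC on the opposite strand. CACGTG holds the core on both strands, counts once here, and is also the E-box bound by other factors. The Egln3 stretch lies at chr12:54203875-54204124 on the minus strand and the 2 Pfkfb3 stretches at chr2:11502091-11502340 and chr2:11553930-11554179, both on the minus strand. That of Ankrd37 lies at chr8:45999851-46000100 and that of Bnip3 at chr7:138909507-138909756, both on the minus strand.
Egln3: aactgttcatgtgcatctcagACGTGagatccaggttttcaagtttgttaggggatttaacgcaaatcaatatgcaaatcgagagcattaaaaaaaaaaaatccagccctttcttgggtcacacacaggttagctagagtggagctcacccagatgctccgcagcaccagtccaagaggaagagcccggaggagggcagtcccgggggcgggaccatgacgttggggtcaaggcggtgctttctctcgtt
Pfkfb3, start 1: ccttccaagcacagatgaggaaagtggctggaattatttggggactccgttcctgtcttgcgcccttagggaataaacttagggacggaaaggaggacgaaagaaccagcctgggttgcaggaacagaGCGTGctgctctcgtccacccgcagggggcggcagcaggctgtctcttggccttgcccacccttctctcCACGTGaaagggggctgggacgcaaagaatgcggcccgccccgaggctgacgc
Pfkfb3, start 2: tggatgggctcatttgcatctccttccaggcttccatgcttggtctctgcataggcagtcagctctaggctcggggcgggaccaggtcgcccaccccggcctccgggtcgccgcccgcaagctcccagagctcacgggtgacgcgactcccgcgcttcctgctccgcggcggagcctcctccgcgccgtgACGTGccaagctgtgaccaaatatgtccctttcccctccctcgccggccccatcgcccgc
Ankrd37: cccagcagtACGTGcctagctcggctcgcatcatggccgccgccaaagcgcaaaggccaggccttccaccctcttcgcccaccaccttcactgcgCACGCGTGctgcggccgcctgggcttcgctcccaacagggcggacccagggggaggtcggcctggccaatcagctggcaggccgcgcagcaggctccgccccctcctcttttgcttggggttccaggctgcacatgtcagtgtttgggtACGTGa
Bnip3: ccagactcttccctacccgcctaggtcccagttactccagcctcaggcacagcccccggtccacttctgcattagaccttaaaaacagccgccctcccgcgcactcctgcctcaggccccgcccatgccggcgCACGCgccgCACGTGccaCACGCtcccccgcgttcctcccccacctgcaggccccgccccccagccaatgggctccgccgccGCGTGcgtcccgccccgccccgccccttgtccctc

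The windows of 300 bases, which run on to 50 bases after the start, held at least 1 core in 10 of 11 cases. They belong to 9 of the 10 genes, with a pair of starts each for Pfkfb3 and Vegfa. No window was available for Ndrg1, so its start was not searched for cores. Of all 32851 windows in the RefSeq table, 43.8% held a core. Of the 14579 windows within the same range of GC content, 54.7% to 86.0%, 63.4% did. Ankrd37 and Bnip3 held 4 cores each. In Ankrd37 the stretch CACGCGTG holds a core on each strand, at -155 to -151 and at -152 to -148. These overlap and were counted apart, unlike CACGTG. By the same rule, at least 4 were found in 2.64% of all windows and in 5.49% of those of like GC content. Egln3, the gene with the widest range of levels here, held a single core at bases -229 to -225 from the start. Starts are numbered by rising coordinate, so for Pfkfb3 and Vegfa, both on the minus strand, the second start is the upstream one. The window of this upstream Vegfa start, at chr17:46032328-46032627, held none. Both Vegfa cores lay in the window of the downstream start, at chr17:46025114-46025413. They thus lie past the upstream start and not before it. Vegfa counts among the genes with a core through that downstream start alone. A match of letters is no measured binding site.

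**Figure D1:**
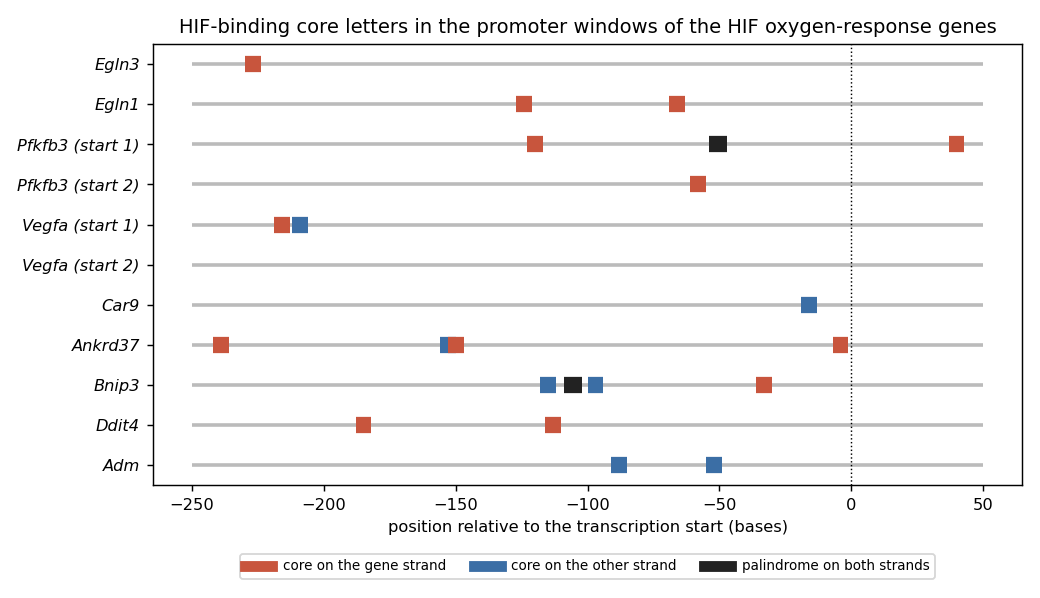
Position of each HIF-binding core (bars) in the 300-base window around each start site, in bases from the start; colour gives the strand. Ankrd37 and Bnip3 carry 4 cores each, of which a pair overlaps in Ankrd37. Egln3 carries a single one far upstream. The second Vegfa start, which is the upstream one of its pair, carries none.

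Levels were set side by side per length, as CPM per kilobase of merged exons in GENCODE M21, which belongs to a later build than the counts. In the controls Bnip3 (29.1 ± 16.5, SD, n = 3), Ndrg1 (28.0 ± 21.0) and Vegfa (27.1 ± 22.6) stood highest, followed by Egln1 (16.4 ± 9.13) and Ddit4 (14.4 ± 3.80). Each of these 5 overlapped its neighbour in that order. A gap followed, with no overlap between libraries, down to Pfkfb3 (5.72 ± 1.49), Ankrd37 (4.06 ± 3.45), Egln3 (1.45 ± 1.06) and Adm (1.38 ± 0.407). Car9 was lowest, at 0.515 ± 0.489 CPM per kilobase, and did not overlap Adm. In the libraries labelled shIft88 Ndrg1 stood alone at the top with 51.0 ± 14.4 CPM per kilobase. Egln3 was last there, at 0.0984 ± 0.0615, below every library of the next gene, Car9 (0.397 ± 0.0861).

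In the comparison of the groups, Egln3 and Pfkfb3 were lower in every library labelled shIft88 than in every control. The other 8 genes overlapped at this scaling, of which 2 did not with library totals as the scale. Counts were compared with edgeR's quasi-likelihood test over 16768 genes. Of these, 0% were called in either direction at an adjusted p of 0.05, so 0 of the 10 genes passed. All 10 had an adjusted p of 0.9995. At an unadjusted p of 0.05, 2 of the 10 were lower, Egln3 and Pfkfb3, and 0 were higher. Over all genes tested 1.26% were lower and 1.97% higher by that rule. DESeq2 called Egln3 (adjusted p = 0.00223) and Pfkfb3 (adjusted p = 0.0241) lower, where it called 0.0718% of all genes lower. Groups without overlap were seen for 3.69% of all genes tested in the lower direction and 4.7% in the higher, against 2 and 0 of the 10. As these genes were picked with this contrast known, nothing is read from these counts. All 10 passed the filter on low counts.

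Egln3 is a prolyl hydroxylase whose gene HIF itself raises. It was at 6.97, 3.12 and 1.48 CPM in control 1, 2 and 3. In shIft88 1, 2 and 3 it stood at 0.113, 0.235 and 0.437 CPM. These are 230, 96 and 60 reads against 4, 7 and 7. The lowest control lay above the highest of the other group: the exact Poisson interval (95%, counting error only) of control 3 ran from 1.13 to 1.91 CPM and that of shIft88 3 from 0.176 to 0.901 CPM. The mean fell from 3.86 ± 2.81 to 0.262 ± 0.164 CPM, a log2 fold change of -3.92 (SE 0.84) for shIft88 over control. Without control 1 it was -3.19.

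Pfkfb3 makes fructose 2,6-bisphosphate, the activator of phosphofructokinase, and so speeds glycolysis. Its level was 35.4, 38.1 and 56.1 CPM in the controls. The libraries labelled shIft88 held 12.5, 19.9 and 16.0 CPM, all below the lowest control. The log2 fold change was -1.42 (SE 0.30). Unlike Egln3, its highest library was control 3, and without control 1 the value was -1.55. Both genes stayed apart between the groups when library totals or DESeq2 size factors set the scale.

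**Figure D2:**
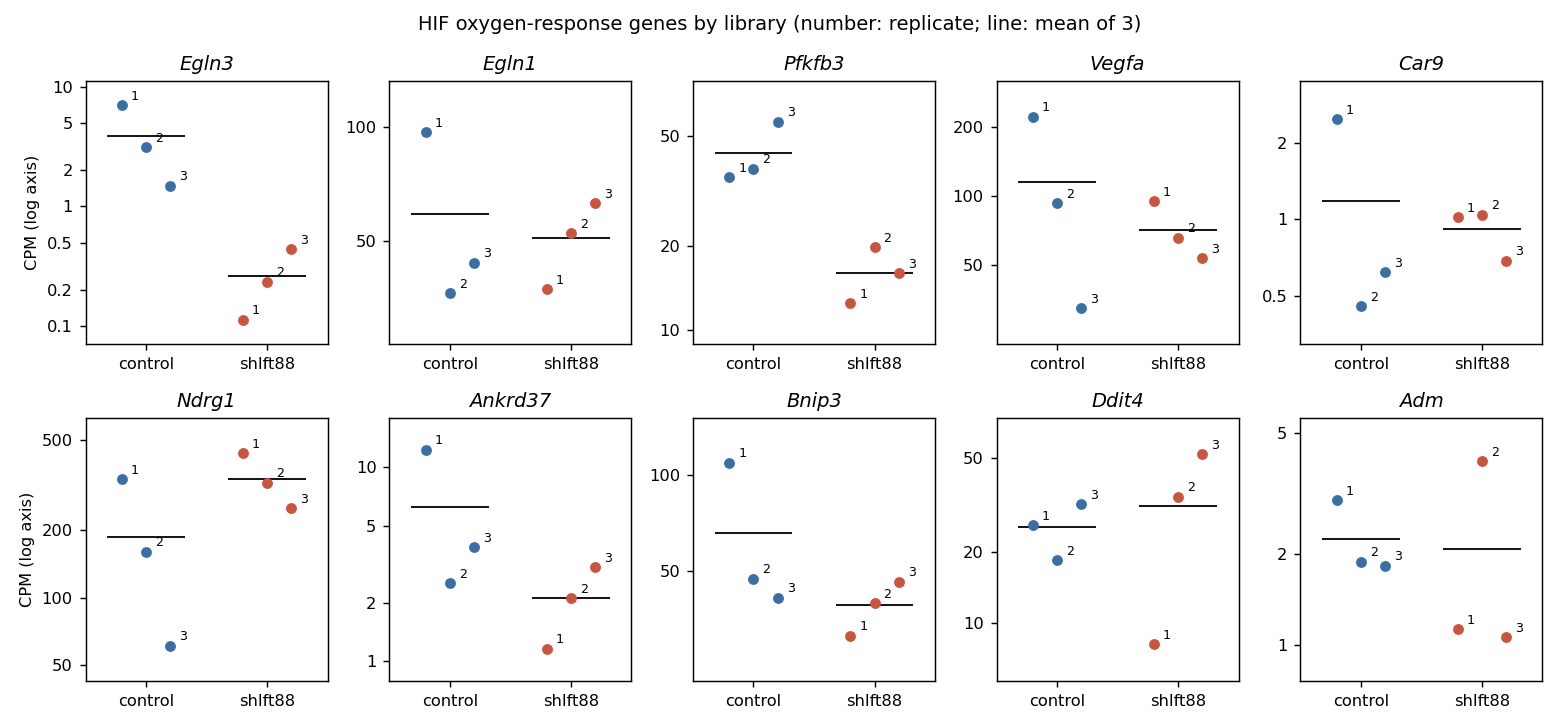
Level of each of the 10 genes in each library, in CPM on a log axis; numbers give the replicate and lines the mean of 3. At this scaling only Egln3 and Pfkfb3 have all 3 controls above all 3 libraries labelled shIft88 (with library totals Ankrd37 and Bnip3 do too), and control 1 is the highest library for 6 of the 10 genes.

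For 6 of the 10 genes control 1 was the highest of the 6 libraries: Egln3, Egln1, Vegfa, Car9, Ankrd37 and Bnip3. Over all genes tested, control 1 was the highest library for 17.8%. The 6 of 10 did not change with library totals or DESeq2 size factors. Control 1 lay above control 2 by a factor of 2.23 for Egln3, 2.65 for Egln1, 2.38 for Vegfa, 5.45 for Car9, 4.86 for Ankrd37 and 2.30 for Bnip3.

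Egln1, the main oxygen sensor that marks HIF for destruction, was at 96.6 CPM in control 1. Control 2 and 3 held 36.5 and 43.9 CPM. The libraries labelled shIft88, at 37.3, 52.4 and 62.8 CPM, all lay above control 2 and below control 1, with control 3 among them. Its log2 fold change was -0.22 (SE 0.41) and turned to 0.34 without control 1.

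Vegfa, the secreted factor that draws in new vessels, was at 222, 93.2 and 32.5 CPM in the controls. The controls thus spanned both sides of the libraries labelled shIft88, which held 95.0, 66.0 and 53.8 CPM. The log2 fold change was -0.69 (SE 0.63), and 0.19 without control 1. Adm, the vessel-active peptide adrenomedullin, was at 3.00, 1.89 and 1.83 CPM in the controls. Its highest library was shIft88 2, at 4.03 CPM, and its lowest were shIft88 1 and 3, at 1.13 and 1.06 CPM. The log2 fold change of Adm was -0.10 (SE 0.66) and 0.16 without control 1.

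Car9, a membrane carbonic anhydrase that handles the acid of glycolysis, was scarce, with 82, 14 and 25 reads in the controls against 36, 31 and 11 reads in shIft88 1, 2 and 3. Control 1 stood at 2.48 CPM, and the other 5 libraries lay between 0.455 and 1.04 CPM. Its log2 fold change was -0.36 (SE 0.74), and 0.77 without control 1.

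Bnip3, which tags mitochondria for removal, was at 109, 47.3 and 41.3 CPM in the controls. In shIft88 1, 2 and 3 it stood at 31.4, 39.8 and 46.3 CPM. Control 1 lay far above these and control 2 just above, and control 3 lay among them. Its log2 fold change of -0.75 (SE 0.41) shrank to -0.18 without control 1. Ankrd37, an ankyrin repeat protein and HIF target, was at 12.3, 2.54 and 3.88 CPM in the controls. Ankrd37 stood at 1.16, 2.12 and 3.06 CPM in shIft88 1, 2 and 3. Its log2 fold change was -1.57 (SE 0.72), and -0.62 without control 1. With library totals as the scale the groups of both genes no longer overlapped, and the number of the 10 that were lower without overlap rose from 2 to 4.

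Ndrg1 and Ddit4 had higher means in the libraries labelled shIft88. Ndrg1, a stress-induced protein that is also abundant in myelinating glia, was at 334, 159 and 61.2 CPM in the controls. The libraries labelled shIft88 held 438, 323 and 249 CPM, so control 1 lay among them and control 2 and 3 below. The log2 fold change was 0.86 (SE 0.58), and 1.61 without control 1. The 13 oligodendrocyte markers, all in the files, summed to 22.6, 126 and 269 CPM over the 3 controls, against 67.7, 104 and 24.4 CPM in shIft88 1, 2 and 3. Opalin and Ugt8a were at 0 in control 1, Sox10 in shIft88 1 and 3, and Olig1 in shIft88 3. That sum was highest in control 3, the library where Ndrg1 was lowest. The part of oligodendrocytes in the level of Ndrg1 was not tested.

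Ddit4, an inhibitor of mTORC1 that also answers to ATF4 and to glucocorticoids, was at 25.9, 18.4 and 31.7 CPM in the controls. The libraries labelled shIft88 held both the lowest and the highest level, 8.09 CPM in shIft88 1 and 51.7 CPM in shIft88 3, with 34.1 CPM in shIft88 2. Its log2 fold change was 0.30 (SE 0.60), and it turned to -0.18 with library totals as the scale. The 11 ATF4 targets summed to 1186 CPM in shIft88 1 and to 741 CPM in shIft88 3, the opposite order to Ddit4 in that pair. The 8 glucocorticoid targets summed to 357 to 661 CPM in the controls and 453 to 544 CPM in the libraries labelled shIft88. The part of either in the level of Ddit4 was not tested.

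Over the 10 genes, 8 had a fold change below 0 and 2 above, where 51.3% of all genes tested were below 0. Their median log2 fold change was -0.53, against -0.012 for all genes tested. Without control 1 the median was 0.18, with 4 genes below 0 and 6 above, against a median of 0.018 for all genes. Within control 2, shIft88 2 and shIft88 3, the libraries with many olfactory receptor genes, it was 0.22, and within the other 3 it was -1.20. In the first of these 1 control stands alone and in the second 1 library labelled shIft88. With library totals as the scale the median was -0.74, but that scale moved the median of all genes to -0.33.

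**Figure D3:**
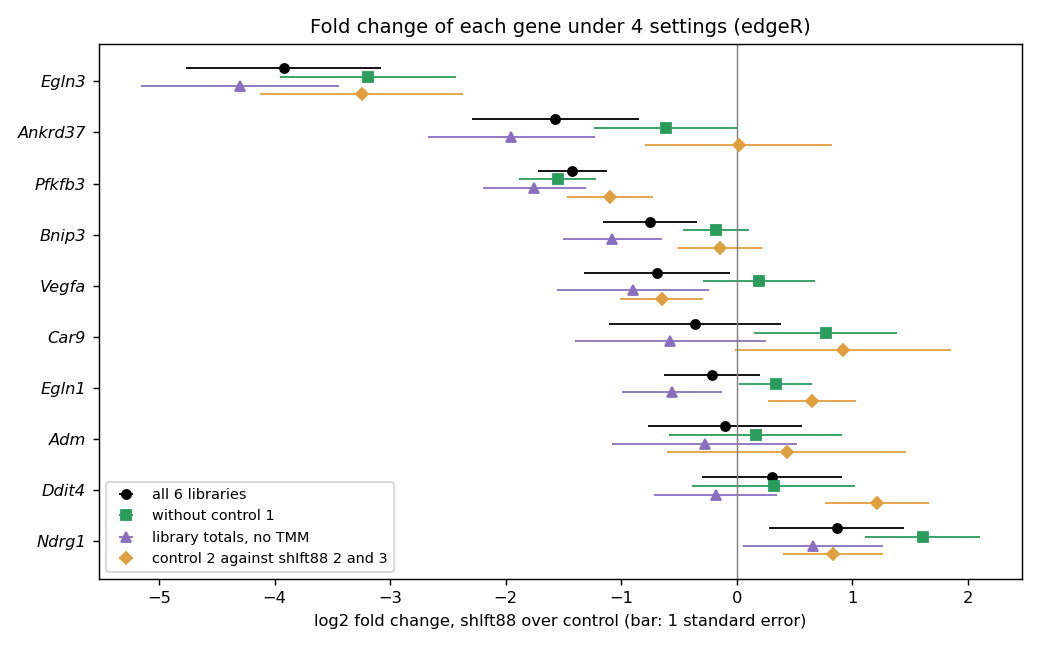
The log2 fold change of each gene (shIft88 over control, edgeR; bars give 1 standard error) with all 6 libraries, without control 1, with library totals as the scale, and within the 3 libraries with many olfactory receptor genes. Egln3, Pfkfb3 and Bnip3 lie below 0 and Ndrg1 above 0 in all 4 settings, while Egln1, Car9 and Adm cross 0 without control 1, as Vegfa does.

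Markers of other cells were at their lowest or highest in control 1 for some lists and not for others. The 17 mature neuron markers, all in the files, summed to 59.4 CPM in control 1 and to 38.1 CPM in shIft88 3, against 212 to 706 CPM in the other 4 libraries. Gabra6 was at 0 in control 1 and Syn1 in shIft88 3. Of this pair of neuron-poor libraries, control 1 had 222 CPM of Vegfa and 6.97 CPM of Egln3, and shIft88 3 had 53.8 and 0.437 CPM. The 14 endothelial markers, all detected in every library, summed to 74.3 to 114 CPM in the controls, with control 1 at 95.2 CPM, and to 74.6 to 127 CPM in the libraries labelled shIft88. The 12 proliferation genes summed to 1188 CPM in control 1, the lowest of the controls, and to 634 to 1538 CPM in the other group. The 10 astrocyte markers summed to 329 CPM in control 1, the lowest library, against 415 to 771 CPM in the others. Control 1 was the highest library for 7 of 9 genes of sprouting endothelium, against 17.8% of all genes tested. Their sum was 325 CPM there and 452 CPM in control 2, but Nid2 alone held 217 and 402 CPM of these. Control 1 was also highest for the sum of 9 neutrophil markers, at 4.72 CPM against 0.707 to 3.63 CPM elsewhere. S100a8 and S100a9 held 1.73 and 1.39 CPM of that sum. These, Camp and Ngp were highest in control 1, while Retnlg, Ly6g, Mpo, Elane and Ltf were each highest in a library labelled shIft88. The sum of 9 lymphocyte markers was highest in control 1 too, at 9.66 CPM against 3.25 to 7.78 CPM. Most of that sum was Ptprc, as no other marker of the list was above 0.515 CPM in control 1. Among those others only Nkg7 was highest in control 1, at 0.121 CPM. Cd4 was highest in shIft88 1, at 0.707 CPM, and Cd79a in shIft88 2, at 0.773 CPM. Of the neutrophil markers Ly6g and Elane were at 0 in control 1, and those of the lymphocyte markers at 0 there included Cd3e and Ms4a1. In bulk tumour RNA fewer cells of a type and less RNA per cell cannot be told apart. Oxygen in the tissue was not measured, and the part of cell makeup in these levels was not tested.

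Of 16 HIF subunits and regulators, 8 had a fold change below 0 and 8 above, with a median of 0.012, and 0 were called by edgeR or by DESeq2. No member of that list had an unadjusted p below 0.05. Hif1a, the main alpha subunit, was at 192, 153 and 112 CPM in the controls, against 133, 136 and 176 CPM in the libraries labelled shIft88. Its log2 fold change was -0.04 (SE 0.28). Per kilobase it stood at 25.8 ± 6.78 CPM in the controls, above Epas1, the other alpha subunit, at 5.65 ± 2.95 CPM.

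Epas1 was at 18.5, 50.1 and 26.0 CPM in the controls, against 31.1, 55.2 and 17.1 CPM in the libraries labelled shIft88. Arnt, the shared partner, lay between 47.2 and 76.0 CPM in all libraries, and Vhl, the ligase subunit, between 97.5 and 180 CPM. Hif1an, which blocks the HIF activation domain with oxygen, lay between 27.2 and 42.3 CPM. Each of these overlapped between the groups. The third family member Egln2, which is not raised by HIF in most cells, was at 40.1, 32.3 and 38.8 CPM in the controls. The libraries labelled shIft88 held 30.0, 29.8 and 32.0 CPM, and the log2 fold change was -0.28 (SE 0.21). The groups thus did not overlap for Egln2, but its whole range over the 6 libraries was 1.35-fold, against 61.5-fold for Egln3 and 2.65-fold for Egln1.

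Of 30 other HIF targets, 24 had a fold change below 0 and 6 above, with a median of -0.49, and 0 were called by edgeR or DESeq2. At an unadjusted p of 0.05, 6 were lower and 0 higher, where 1.26% of all genes tested were lower and 1.97% higher. Control 1 was the highest library for 10 of the 30, against 17.8% of all genes. The histone demethylase Kdm3a lay between 58.4 and 73.3 CPM in all 6 libraries. P4ha1, of collagen hydroxylation, was highest in shIft88 3, at 90.7 CPM, and lowest in shIft88 2, at 50.6 CPM. Higd1a, a mitochondrial protein, was at 48.1 CPM in control 1 and at 27.0 to 34.7 CPM in the other libraries. The transcription factor Bhlhe40 was at 54.8, 12.8 and 29.5 CPM in the controls, against 28.7, 9.34 and 9.68 CPM in the libraries labelled shIft88. Mxi1, which opposes Myc, lay between 44.8 and 78.0 CPM, and Bnip3l, the relative of Bnip3, between 109 and 179 CPM. The groups overlapped for all 6 of these genes. Without control 1 the list median was -0.33, so it stayed below 0 where that of the 10 genes did not. Whether the lists differ in this was not tested.

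Glycolysis genes had a median of -0.49, with 17 of 21 below 0 and 4 above, and 0 were called by edgeR or DESeq2. Of these, 5 were lower and 0 higher at an unadjusted p of 0.05, against 1.26% and 1.97% of all genes tested. Control 1 was the highest library for 12 of the 21, against 17.8% of all genes. Pgk1, which makes ATP in glycolysis, was at 257 CPM in control 1, and the other 5 libraries lay between 59.7 and 71.4 CPM. Ldha, which makes lactate, was at 958, 357 and 606 CPM in the controls, against 411, 361 and 314 CPM in the libraries labelled shIft88. Slc2a1, the glucose transporter, was at 75.0, 41.9 and 36.2 CPM in the controls, against 37.5, 55.0 and 29.4 CPM in the other group. Pdk1, which keeps pyruvate out of mitochondria, was highest in control 2, at 146 CPM, and lowest in shIft88 3, at 66.3 CPM. The median was -0.41 without control 1, with 13 genes below 0.

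The receptors of the secreted members were present in every library. Of 9 receptor genes for Vegfa and Adm, 4 had a fold change below 0 and 5 above, with a median of 0.018, and 0 were called by edgeR or DESeq2. At an unadjusted p of 0.05, 1 of the 9, Nrp2, was lower and 0 were higher, against 1.26% and 1.97% of all genes tested. The groups overlapped for Nrp2, with control 2 at 74.1 CPM and shIft88 3 at 80.7 CPM. Flt1, a VEGF receptor, was at 83.3 CPM in control 1 and at 21.6 to 44.7 CPM in the other 5 libraries. Kdr, the main signalling receptor, lay between 9.96 and 32.7 CPM, lowest in control 3, where Vegfa was also lowest. Calcrl, the receptor chain for Adm, was at 1464, 2023 and 308 CPM in the controls, against 1263, 1878 and 1819 CPM in the libraries labelled shIft88. Per kilobase this was 259 ± 179 and 339 ± 69.5 CPM, far above Adm itself. Ramp2, the partner that makes Calcrl an adrenomedullin receptor, lay between 6.39 and 19.3 CPM.

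Apart from the 10 themselves, the genes most like them in pattern were Ube2z, Rab12, ORF19 and Usp9x. Only the 10 were left out of the ranking, so genes of the HIF and glycolysis lists could enter it. None of the genes named belongs to those lists. Likeness was Pearson's correlation over 6 libraries between a gene's log2 level and the mean of the 10 standardized levels, ranked over 11722 genes. It ran from 0.977 for Usp9x to 0.998 for Ube2z. The profile itself was 1.24 in control 1 and between -0.66 and 0.020 in the other libraries, so these are genes with one high library. Ube2z was at 131 CPM in control 1 and at 81.2 to 96.0 CPM elsewhere. As the highest of many values over 6 libraries that share their depth and scaling, these carry no p.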

How the data were processed

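Per the labels' protocols, stranded libraries were made from total RNA with a TruSeq kit. The submitters' processing notes name BWA and mm9; for the counting program, annotation and strand setting the sources used here give nothing. The authors deposited raw counts of reads per gene, 1 table per library. The 5 tally rows at the end of each table entered neither library sizes nor tests. Reads assigned to no feature made up 18.8% to 39.5% of all tallied reads and reads that did not align 2.93% to 10.2%.

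The 10 genes, the gene lists and the named genes (all 10 genes, fixed names from each list, and the 5 genes most like them, of which 1 is not reported here) were chosen with earlier results of these data known. The test was that of edgeR 4.0.16, run in R 4.3.3 (filterByExpr, TMM scaling, glmQLFit with robust=TRUE, two-sided glmQLFTest, Benjamini-Hochberg adjustment over 16768 genes at 0.05) on all 6 libraries, with no covariate, and the code was tested on simulated data. CPM values were computed here with TMM-scaled library sizes. Levels are means ± SD over 3 libraries. Alternatives used DESeq2 1.42.0, limma 3.58.1, other scalings and filters, a term for or split by olfactory receptor reads, and each library left out. Replicate numbers follow accession order and pair nothing.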

Additional observations from a re-analysis of the deposited data

How the results depend on the processing

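Over 17 alternatives chosen with earlier results known, Egln3 (-5.20 to -3.19), Pfkfb3 (-1.92 to -1.10) and Bnip3 (-1.28 to -0.15) kept log2 fold changes below 0 and Ndrg1 (0.44 to 1.61) above 0. The number of genes called was 0 in the fit reported, 56 with DESeq2 (44 higher, 12 lower) and 6 without a filter (5 higher, 1 lower). DESeq2 called 2 of the 10 genes, Egln3 (-3.96) and Pfkfb3 (-1.46). With library totals alone Ddit4 was -0.18 and the median of other HIF targets -0.71, where the median of all genes was -0.33. With limma-voom Car9 was 0.070, Ddit4 -0.17 and other HIF targets -0.36. With a term for olfactory receptor reads Car9 was 0.14 and Ddit4 -0.30. Within the 3 libraries rich in such reads the median of the 10 was 0.22 and that of other HIF targets -0.32, with Egln1 at 0.65, Car9 at 0.92, Ankrd37 at 0.015 and Adm at 0.43. Within the other 3 the median of the 10 was -1.20 and Ddit4 was -1.87. With each library left out in turn, the median of the 10 ran from -0.84 to 0.18, that of other HIF targets from -0.48 to -0.30 and that of glycolysis from -0.90 (without shIft88 1) to -0.39. Egln1 ran from -0.47 to 0.34, Vegfa from -1.14 to 0.19, Car9 from -0.76 to 0.77, Ddit4 from -0.30 to 0.74 and Adm from -1.03 to 0.17. The highest values of Egln1, Vegfa, Car9 and the median of the 10 came without control 1. The cause was not tested. No paired analysis was possible because the labels give no replicate numbers. Egln3, Car9 and Adm rest on few reads, as does Ankrd37 in the libraries labelled shIft88, which limits their precision. Adm had from 17 reads in shIft88 3 to 120 in shIft88 2. Ankrd37 had 41, 63 and 49 reads in shIft88 1, 2 and 3.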

Other observations

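Groups did not overlap for 4 of 30 other HIF targets and 4 of 21 glycolysis genes, all lower in the libraries labelled shIft88, against 3.69% of all genes tested in that direction. None of them was called by edgeR or DESeq2. The genes named here were chosen after their values were seen. The HIF targets included Tfrc, Kdm4b and Egfr, and the glycolysis genes were Pfkp, Aldoa, Gapdh and Slc16a3. Slc16a3, which exports lactate, was at 2.88, 1.69 and 2.05 CPM against 0.340, 1.14 and 0.625 CPM. In a list of 9 genes of sprouting endothelium, 8 had a fold change below 0, and Apln, a vessel peptide, was at 18.6, 13.0 and 12.5 CPM in the controls, against 6.71, 4.97 and 8.43 CPM in the libraries labelled shIft88. Control 1 was the highest library for 7 of these 9 genes. Of the 16 HIF subunits and regulators, 1 was higher without overlap and 1 lower, where 4.7% and 3.69% of all genes tested were. The higher one was Rbx1, a subunit of the Vhl ligase. Control 1, 2 and 3 held 117, 112 and 76.7 CPM of Rbx1, while shIft88 1, 2 and 3 held 221, 126 and 143 CPM. Neither edgeR nor DESeq2 called it.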
